A study of Homo sapiens with 8 samples.

Results

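The genes described are 10 that encode the replicative DNA helicase and the proteins that place it on replication origins: MCM2, MCM3, MCM4, MCM5, MCM6, MCM7, MCM10, CDC45, CDC6 and CDT1. They were chosen by name, and all 10 of them had at least 1 probe set annotated to that gene alone, with 21 probe sets between them, out of 54675 on the array. Each gene is represented by the probe set with the highest mean log2 value over the arrays, and the others serve as a check. All 10 passed the intensity filter that left 11678 of 19775 genes for testing.

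The cells were RL, a human B lymphoma line labelled t(14,18)+ that was grown as multicellular aggregates (MALC) for 14 days. Pyronin Y, which stains RNA, was used to sort them into a pyronin Y dull fraction labelled quiescent and a pyronin Y bright fraction labelled cycling. Each fraction was hybridised to 4 Affymetrix U133 Plus 2.0 arrays, 8 arrays in all, and the values are MAS5 intensities scaled by the authors to the same trimmed mean. No other treatment or genetic change is labelled, so both groups share the line, its translocation, the culture and the dye. Whether the 4 samples of a fraction are separate cultures is not labelled. The p-values therefore rest on a spread that may be technical only, and the number of arrays limits the precision. In RNA from pooled cells, fewer cells expressing a gene and less RNA per cell cannot be told apart.

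Replication origins are prepared before S phase and used once. The origin recognition complex, with CDC6 and CDT1, loads the ring of MCM2 to MCM7 around DNA, where it stays inactive. In S phase the ring is switched on by kinases that recruit CDC45 and the GINS complex, and MCM10 takes part in that step. Loss of the MCM proteins is a textbook sign that cells have left the cycle, and their genes are well-known targets of the E2F transcription factors.

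All genes but MCM5 were far lower in quiescent cells under each scaling tried, and the call for MCM5 depended on the scaling. In the deposited values the quiescent mean of MCM5 was 84.3% of the cycling mean. For the other 5 subunits of the same ring it was 18.3% to 39.1%, for the loading factors CDC6 and CDT1 15.2% and 34.3%, and for CDC45 and MCM10 5.91% and 33.1%. After each array was centred on its median, all 10 genes were called lower by limma at an adjusted p under 0.05, against 32.5% of all genes tested. With the authors' scaling as deposited, 9 were called lower, against 15.4%, and MCM5 was the gene not called. After quantile normalization the same 9 were called, against 16.4%. The groups did not overlap for 9 of the 10 genes in the deposited or the centred values, whereas 15.4% and 28.2% of all genes tested had every quiescent array under every cycling array in those values. The median log2 difference of the 10 genes, quiescent minus cycling, was −2.18 centred, where that of all genes tested was −0.33, and −1.77 as deposited, where that of all genes was 0.08.

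**Figure D1:**
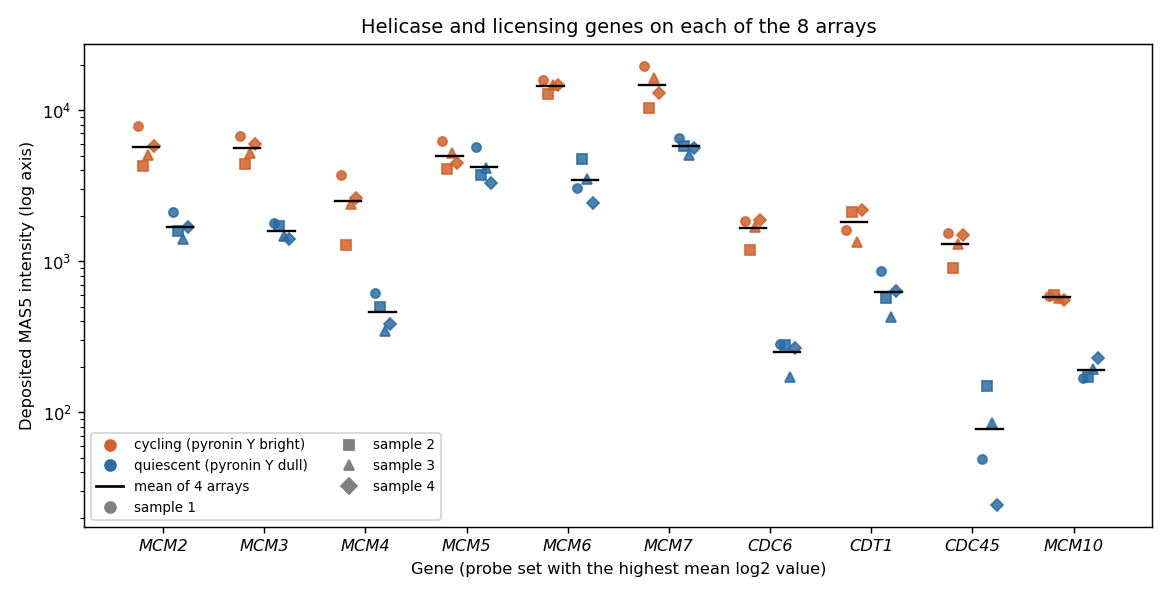
Deposited MAS5 intensity (log axis) of the 10 genes on the 4 cycling and 4 quiescent arrays, with a marker for each sample number and a line at each group's mean. MCM5 is the gene whose groups overlap, with means of 4994 and 4209; CDC45 has the lowest quiescent mean, 77.2.

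The stretches of the promoters that carry E2F-type letters are shown because 9 of these genes changed in one direction together. Windows of 250 bases before to 50 after an annotated start were matched by symbol in the RefSeq promoter table of build GRCh38.p14 for 8 of the 10 genes, all but MCM4 and MCM5, with 12 windows in all. The letters searched on both strands were TTTGGCG as well as TTTCGCG, and further TTTCCCG along with TTTGCCG. At least 1 window of each of the 8 genes held a match, and 9 of the 12 windows did. Among all 35116 windows 8.67% held one, and among genes 10.4% of 27305, or 16.0% of the 9467 tested genes with a window. Matches were also found in 17 of 34 other genes of origin licensing and helicase action with a window (50%). Such letters are thus not particular to the 10 genes, and their relation to the changes was not tested. A match is a description of these letters and not a measured binding site. Of the matches that read as listed on the gene's own strand, the one nearest the start of each gene is printed with its surroundings, 30 bases with the matched letters in capitals. It began at −90 in MCM6 and between −27 and 8 in the other 7 genes, counted from the first transcribed base as 1.
MCM2, chr3:127598402-127598431, plus strand: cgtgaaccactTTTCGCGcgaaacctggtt
MCM3, chr6:52284728-52284757, minus strand: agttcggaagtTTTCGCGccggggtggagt
MCM6, chr2:135876515-135876544, minus strand: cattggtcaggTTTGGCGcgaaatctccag
MCM7, chr7:100101388-100101417, minus strand: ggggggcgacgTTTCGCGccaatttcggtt
CDC6, chr17:40287875-40287904, plus strand: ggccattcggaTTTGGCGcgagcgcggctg
CDT1, chr16:88803751-88803780, plus strand: cccgcgggaaaTTTGGCGggaaccgcgccc
CDC45, chr22:19479884-19479913, plus strand: aggagccgtgaTTTGGCGggagtcttgacc
MCM10, chr10:13161552-13161581, plus strand: ccggttggaatTTTGGCGggttcagctgtg

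MCM6 held the most matches, 4, which lie in 2 places where letters on both strands overlap. The 200 bases before its start, chr2:135876444-135876643 on the minus strand of GRCh38.p14, show both places in capitals.
MCM6 upstream: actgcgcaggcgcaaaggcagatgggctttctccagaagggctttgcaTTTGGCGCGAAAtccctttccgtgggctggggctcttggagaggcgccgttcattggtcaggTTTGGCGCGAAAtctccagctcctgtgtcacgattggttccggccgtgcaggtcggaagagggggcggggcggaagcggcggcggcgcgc
CDC45 and MCM7 have 3 annotated windows each, and 1 of those of CDC45 and 2 of those of MCM7 held a match.

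Of the ring, MCM2 measured 7894, 4238, 5008 and 5788 on cycling samples 1 to 4 and 2115, 1575, 1410 and 1676 on quiescent samples 1 to 4. Every quiescent array lay under every cycling array, and the lowest cycling value was that of sample 2. MCM2 fell by 2.15 on the log2 scale (SE 0.22, limma adjusted p = 2.8e-06), and by 1.74 as deposited. MCM3 measured 6732, 4384, 5211 and 6008 on cycling and 1801, 1697, 1455 and 1398 on quiescent samples, again without overlap and with cycling sample 2 the lowest of its group. It fell by 2.22 (SE 0.20, limma adjusted p = 8.16e-07), so that MCM2 and MCM3 changed by nearly the same amount. MCM4 measured 3742, 1273, 2388 and 2631 on cycling and 616, 497, 345 and 381 on quiescent samples. Its cycling values spread widest of the ring, by 2.94-fold, and sample 2 was the lowest. MCM4 fell by 2.80 (SE 0.34, limma adjusted p = 5.14e-05).

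MCM6 measured 15707, 12797, 14585 and 14694 on cycling and 3052, 4714, 3499 and 2409 on quiescent samples. Its cycling arrays lay close together, within 1.23-fold, and quiescent sample 2 was the highest of its group. MCM6 fell by 2.53 (SE 0.21, limma adjusted p = 4.12e-07). MCM7 measured 19609, 10265, 16190 and 12947 on cycling and 6560, 5808, 5068 and 5651 on quiescent samples. The groups did not overlap, but the lowest cycling value, again that of sample 2, stood nearer to the quiescent ones than in the other subunits that fell. MCM7 fell by 1.73 (SE 0.22, limma adjusted p = 3.11e-05), the smallest of these 5 changes.

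MCM5, which sits in the same ring beside MCM2 and MCM3, measured 6219, 4063, 5230 and 4464 on cycling samples and 5685, 3741, 4127 and 3284 on quiescent samples. The groups overlapped: quiescent sample 1 lay above 3 of the cycling arrays, and quiescent sample 3 above 1. Between samples of the same number the quiescent value was the lower in 4 of 4. The labels do not say whether the numbers pair the arrays. The overlap also held in the centred and the quantile normalized values. Its log2 difference was −0.67 centred (SE 0.22, 95% interval −1.14 to −0.20, limma adjusted p = 0.0255), which is −0.34 relative to the median gene. As deposited it was −0.26 (95% interval −0.64 to 0.13, adjusted p = 0.302), and after quantile normalization −0.15 (−0.51 to 0.21, adjusted p = 0.569). In the centred values MCM5 no longer passed without cycling sample 1, cycling sample 3, quiescent sample 2 or quiescent sample 4 (adjusted p = 0.0753, 0.0842, 0.0647 and 0.104). It passed without cycling sample 2 (limma adjusted p = 0.00364) and with a block for sample number (limma adjusted p = 0.00241). The second MCM5 probe set lay between 2388 and 3395 on cycling and between 1797 and 3201 on quiescent arrays. Its log2 difference of −0.69 was like that of the first, and neither passed when adjusted over all 54613 probe sets (limma adjusted p = 0.0778 and 0.0805).

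Ratios taken within each array are free of the scaling and show that the change within the ring was unequal. From cycling to quiescent arrays, the log2 ratio of MCM5 to MCM7 rose by 1.06, to MCM2 by 1.48, to MCM3 by 1.55, to MCM6 by 1.86 and to MCM4 by 2.13. In all 5 of these pairs every quiescent array lay above every cycling array. The SDs of these ratios were 0.14 to 0.44 among cycling and 0.24 to 0.51 among quiescent arrays (n = 4 each). In 2 of the 10 pairs without MCM5 the groups did not overlap either, MCM3 to MCM7 with a change of −0.49 and MCM4 to MCM7 with −1.07. The smallest change of any pair was that of MCM2 to MCM3, at 0.067. The 5 pairs with MCM5 share that gene and are not separate observations. As deposited MCM5 changed by −0.26 and the median gene tested by 0.08, so their rises largely restate the falls of the other 5 subunits. How often pairs of other genes lay apart was not counted. All these ratios are a description with no test, and they compare changes and not levels, since probe sets differ in brightness.

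**Figure D2:**
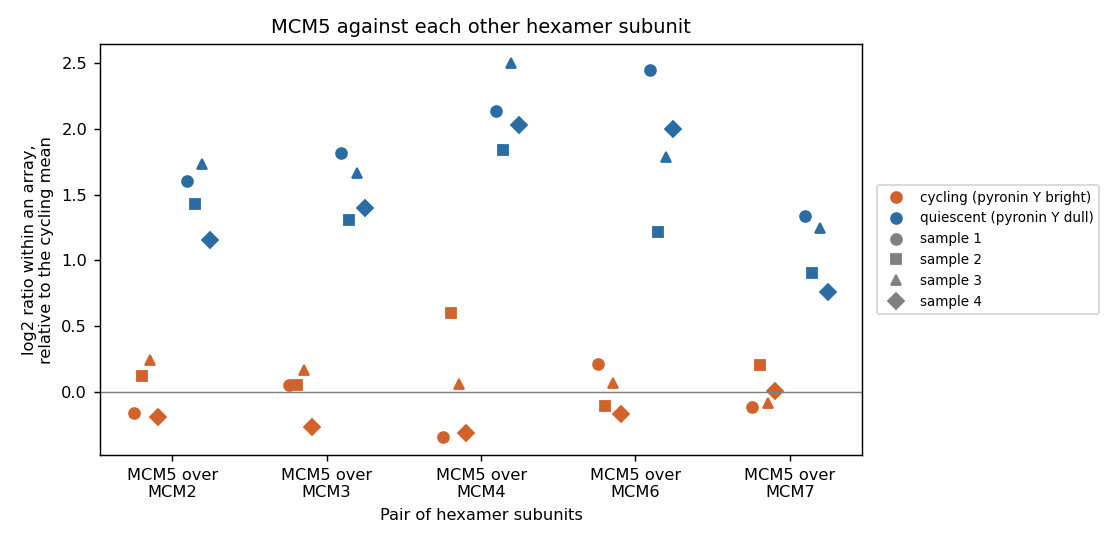
Log2 ratio of MCM5 to each of the 5 other ring subunits on each array (vertical axis, relative to the mean of the 4 cycling arrays, so that 0 is the cycling mean). In every pair the 4 quiescent arrays sit above the 4 cycling arrays, with mean changes from 1.06 for MCM7 to 2.13 for MCM4. The 5 pairs share MCM5 and are not separate observations.

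The loading factors differed from each other in how far they dropped. CDC6, the ATPase that closes the loading complex, measured 1849, 1191, 1676 and 1867 on cycling and 285, 279, 170 and 266 on quiescent samples. The quiescent arrays were all under every cycling array, and quiescent sample 3 stood under the 3 others of its group. CDC6 fell by 3.14 (SE 0.24, limma adjusted p = 1.77e-07). CDT1, its partner that brings the MCM ring, measured 1602, 2119, 1338 and 2185 on cycling and 859, 568, 429 and 631 on quiescent samples. It was 1 of 2 genes of the 10 in which cycling sample 2 was not the lowest of its group, the other being MCM10. CDT1 fell by 1.97 (SE 0.21, limma adjusted p = 3.66e-06). Within arrays the CDC6 value fell by 1.12 on the log2 scale relative to the mean of MCM2 to MCM7, with no overlap between the groups. CDT1 differed by 0.045 from that mean's change, with overlap. The mean includes MCM5, the subunit that fell least.

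Of the 2 genes that act when the helicase is switched on, CDC45 had the largest drop of all genes tested. It measured 1533, 897, 1297 and 1500 on cycling and 49.2, 149.9, 85.3 and 24.3 on quiescent samples. The quiescent values spread by 6.16-fold, and 3 of the 4 lay under their own array's median intensity. Their mean, 77.2, was under the filter's 83.3, so the gene passed that filter through its cycling arrays. The size of the change and its rank thus rest on dim values. CDC45 fell by 4.77 (SE 0.50, limma adjusted p = 4.45e-05), and over the settings tried it ran from −5.18 to −4.03. MCM10 measured 588, 600.4, 567 and 549.8 on cycling samples, the tightest group of the 10 genes with a spread of 1.09-fold, and 169.5, 170.2, 193 and 229 on quiescent samples. It fell by 2.02 (SE 0.21, limma adjusted p = 2.21e-06). Relative to the mean of MCM2 to MCM7 on the same array, CDC45 fell by 2.75 without overlap, and MCM10 differed by −0.0043, with overlap. That mean includes MCM5, the subunit that fell least. The closeness of MCM10 also holds for the probe set used only, since its other probe sets had larger drops (−4.06 and −3.66).

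**Figure D3:**
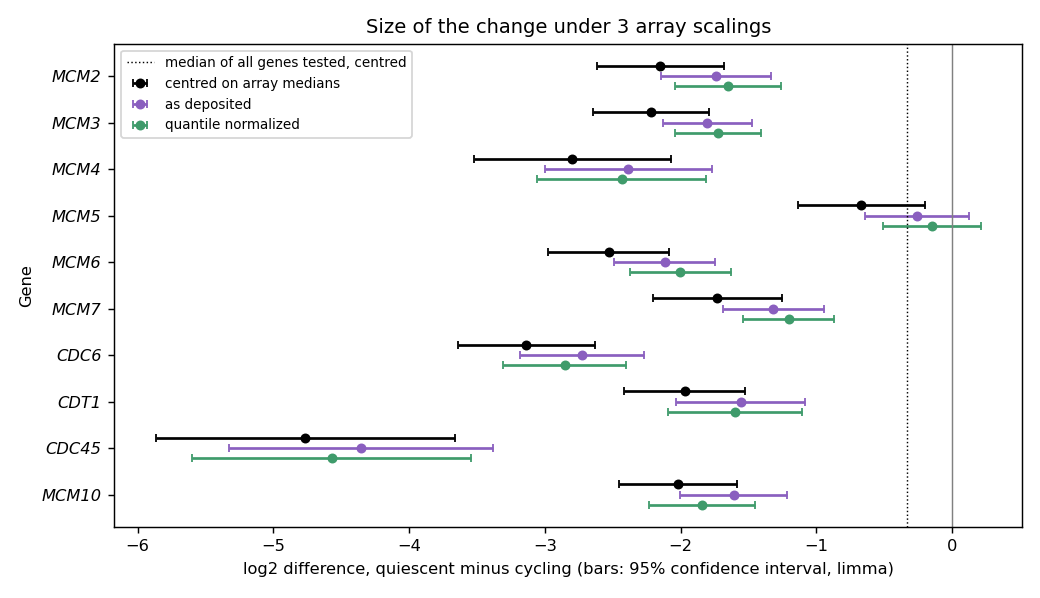
Log2 difference, quiescent minus cycling, of the 10 genes (horizontal axis, bars the 95% confidence interval of limma) with arrays centred, as deposited and quantile normalized. The interval of MCM5 reaches above 0 in the last 2, from −0.64 to 0.13 and from −0.51 to 0.21; the intervals of the other 9 genes stay under 0 in all 3 scalings.

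Other probe sets of the same genes mostly gave the same direction with sizes that differed. Of 11 further probe sets, 8 were called lower and 0 higher by limma over all probe sets, where 9.81% of 54613 were called lower. As deposited 7 were called lower, against 4.52%. The sizes disagreed in MCM10, whose 2 other probe sets had log2 differences of −4.06 and −3.66, where the one used had −2.02. Those probe sets went from mean intensities of 1134 to 97.4 and of 407 to 43.9, whereas the one used went from 576 to 190. CDC6 likewise had −4.26 at its second probe set, which went from 1118 to 79.9. MCM4 had 5 probe sets, of which 4 fell, with differences from −3.44 to −2.03. The fifth was dim in both groups (51.8 and 50.1), was under the array median on 7 of 8 arrays and did not pass (−0.35, adjusted p = 0.78, and 0.064 as deposited). The dim second probe set of MCM6 (87.6 and 62.3) did not pass either (−0.89, adjusted p = 0.148). MCM7 fell by 2.00 at its second probe set. CDT1 fell by 1.83 at its second, which did not pass as deposited (−1.42, adjusted p = 0.0614). The CDT1 probe set used ends in _x_at, Affymetrix's mark for probes that may also bind other transcripts. MCM2, MCM3 and CDC45 had 1 probe set each.

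**Figure D4:**
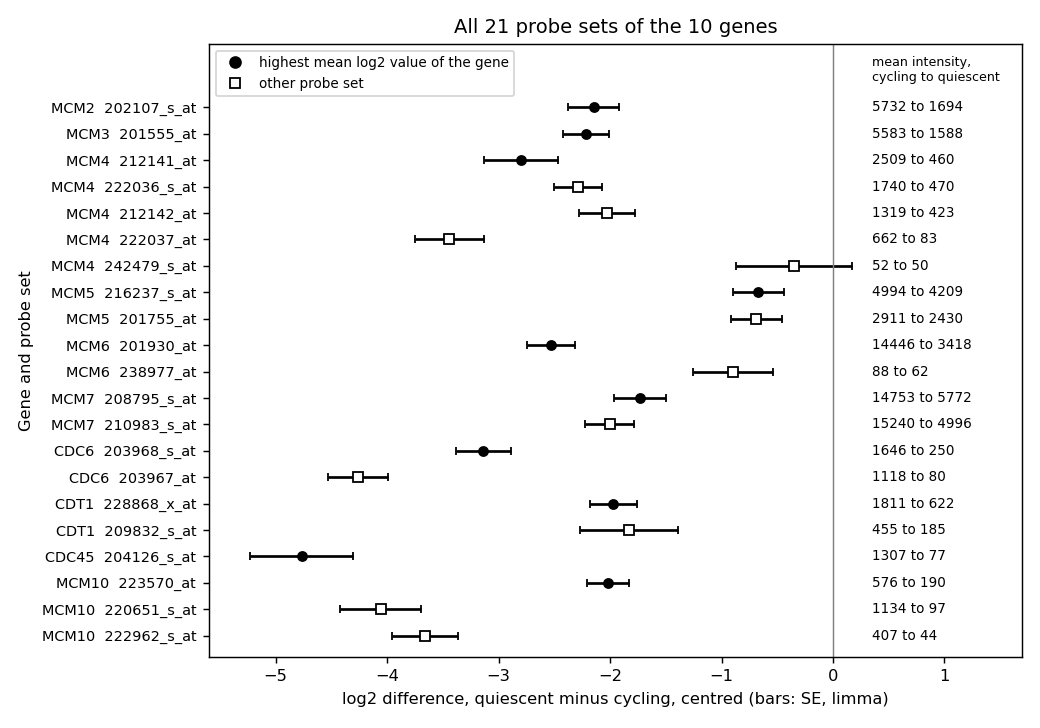
Log2 difference, quiescent minus cycling, centred (horizontal axis, bars the SE of limma) for all 21 probe sets of the 10 genes, with mean intensities of the cycling and quiescent arrays at the right. Filled circles are the probe sets used and open squares the others; both MCM5 probe sets lie near −0.7, apart from all others except 2 dim ones of MCM4 and MCM6.

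The arrays differed in ways that touch these values. Cycling sample 2 was the lowest of its group in 8 of the 10 genes, and its centred values for them lay 0.59 under the group mean on the log2 scale on average, where those of the other 3 cycling arrays lay 0.13 to 0.31 above. Without it the differences of all 10 genes were larger, such as −2.37 for MCM2 and −3.18 for MCM4. Array medians ran from 72.2 to 98.1 on cycling and from 103.6 to 113.8 on quiescent arrays. Centring on them lowers each difference by 0.41. For ACTB, the 3′ control probe set exceeded the 5′ one by 1.80 to 2.26 (log2) on cycling and by 2.38 to 2.80 on quiescent arrays. For GAPDH the same log2 ratio was −0.148 to 0.032 on cycling and 0.101 to 0.145 on quiescent arrays. Neither ratio overlapped between the groups, and their part in the results was not tested. All 5 measured B cell markers were bright, with mean intensities from 2137 to 24316. In the centred values 4 of them were called lower, beside 32.5% of all genes tested. Their summed deposited intensity was alike in both groups, 51250 to 61831 on cycling and 51025 to 62458 on quiescent arrays. The summed intensity of 20 measured markers of other cell types was 1843 to 2580 on cycling and 2043 to 2627 on quiescent arrays, with 1 of the 8 tested called lower and 0 higher by limma. Within them the sum of 5 T cell markers was 687 to 853 on cycling and 451 to 665 on quiescent arrays, and that of 4 endothelial markers was 370 to 513 and 518 to 967, neither with overlap. The part of these markers in the results was not tested.

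Other genes of origin licensing and helicase action were lower in quiescent cells as a rule, with wide differences between partners of 1 complex. Of 39 genes listed, 1 had no probe set of its own, 4 did not pass the filter and 34 were tested. Of these, 27 were called lower and 0 higher by limma in the centred values, beside 32.5% and 2.8% of all genes tested, and 7 were not called. As deposited 23 were lower and 1 higher, beside 15.4% and 12.2%. The median log2 difference was −1.22 centred and −0.80 as deposited.

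All 6 measured subunits of the origin recognition complex, which marks origins, were called lower. ORC1, the subunit that is made anew in each cycle, fell from 451 ± 34.6 to 89.0 ± 68.0 (SD, n = 4 each); limma gave −3.17 on the log2 scale (SE 0.52, adjusted p = 5.21e-04). ORC3 measured 1430 ± 220 and 1295 ± 246, with −0.56 centred (limma adjusted p = 0.0333) and −0.15 as deposited (0.551), so its call is lost with the deposited scaling, as it is for ORC4. ORC3 also lost it after quantile normalization (limma adjusted p = 0.614), without the intensity filter (0.0605), with 32 added to each intensity (0.0680) and without trend and robust (0.0608). Its call was lost too without any 1 of cycling samples 1 and 4 or quiescent samples 1 and 4 (0.0899 to 0.118).

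Of 7 genes that control licensing, 4 were lower. DTL, which directs the ubiquitin ligase that destroys CDT1 in S phase, fell from 1542 ± 259 to 174 ± 97.6; limma gave −3.70 on the log2 scale (SE 0.32, adjusted p = 1.24e-06). GMNN, which encodes the CDT1 inhibitor geminin, fell by 1.74, and SKP2, another ligase part that acts on CDT1, fell by 1.98. DDB1, the ligase adaptor that DTL binds, fell by 0.84. CUL4A and CUL4B, the scaffolds of that ligase, were not called (−0.50 and −0.15, limma adjusted p = 0.0739 and 0.556), and CUL4B had 0.26 as deposited. CUL4A passed without cycling sample 1 (−0.65, adjusted p = 0.0249). A second CUL4A probe set of like brightness was called lower over all probe sets (from 980 to 693, −0.95, adjusted p = 0.0185) but not as deposited (0.155), and the other 2 were not called. FZR1, an activator of the anaphase-promoting complex, measured 395 ± 98.4 and 642 ± 62.6. It was not called centred (0.32, limma adjusted p = 0.232) and was called higher as deposited (0.73, adjusted p = 0.015).

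Of the MCM relatives, MCM8 fell from 470 ± 101 to 216 ± 56.0 (−1.55, limma adjusted p = 1.48e-04), while MCM9, its partner in repair, measured 355 ± 44.5 and 367 ± 33.7 and was not called (−0.36 centred and 0.051 as deposited, adjusted p = 0.226 and 0.86). MCMBP, which binds MCM proteins, fell by 0.97.

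Among 10 tested genes that activate the helicase, 8 were lower. The GINS complex, which joins CDC45 and the MCM ring, was uneven at the probe sets used. GINS1 fell from 2528 ± 542 to 327 ± 85.6 (−3.38, SE 0.24, limma adjusted p = 1.32e-07), GINS2 fell by 2.97 and GINS3 fell by 2.07. GINS4 measured 171 ± 37.3 and 190 ± 53.4 and was not called (−0.27, limma adjusted p = 0.554, and 0.14 as deposited). Of its 3 other probe sets 2 were called lower over all probe sets, with −3.21 (from 296 to 42.6) and −2.05 (from 174 to 56.5), so the result for GINS4 depends on the probe set. The kinase CDC7 fell by 1.79, and its activator DBF4 fell by 1.22. DBF4B, a second activator of that kinase, was dim (122 ± 19.1 and 88.5 ± 11.2) and not called (−0.87, limma adjusted p = 0.052). It passed without cycling sample 2 (adjusted p = 0.0463), and 1 of its 3 other probe sets, dimmer still (from 56.3 to 8.66), was called lower over all probe sets (−2.79, adjusted p = 0.017).

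All 4 genes that travel with the fork were lower, from WDHD1, which links the helicase to DNA polymerase alpha (−2.44, limma adjusted p = 6.58e-06), to CLSPN, the checkpoint adaptor claspin. CLSPN was dim at the probe set used (129 ± 17.9 and 88.3 ± 15.3) and was not called as deposited (−0.96 centred, limma adjusted p = 0.029, and −0.55 as deposited, 0.207). In the centred values it also lost its call without any 1 of cycling samples 1, 3 and 4 or quiescent samples 2 and 3, with adjusted p from 0.0502 to 0.0958. Of its 3 other probe sets 2 were called lower over all probe sets, with −1.69 and −3.02. Of the 4 tested genes that take the helicase off DNA at the end, 3 were lower. LRR1, which recognises the finished helicase for its ubiquitin ligase, fell from 915 ± 38.1 to 368 ± 125 (−1.78, limma adjusted p = 2.13e-05), and its scaffold CUL2 fell by 0.70 but did not pass as deposited (−0.29, adjusted p = 0.199). UBXN7, an adaptor of the unfolding enzyme VCP, was not called (−0.47, adjusted p = 0.0706) but passed without cycling sample 2 (−0.55, 0.0325), and VCP itself fell by 1.17.

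**Figure D5:**
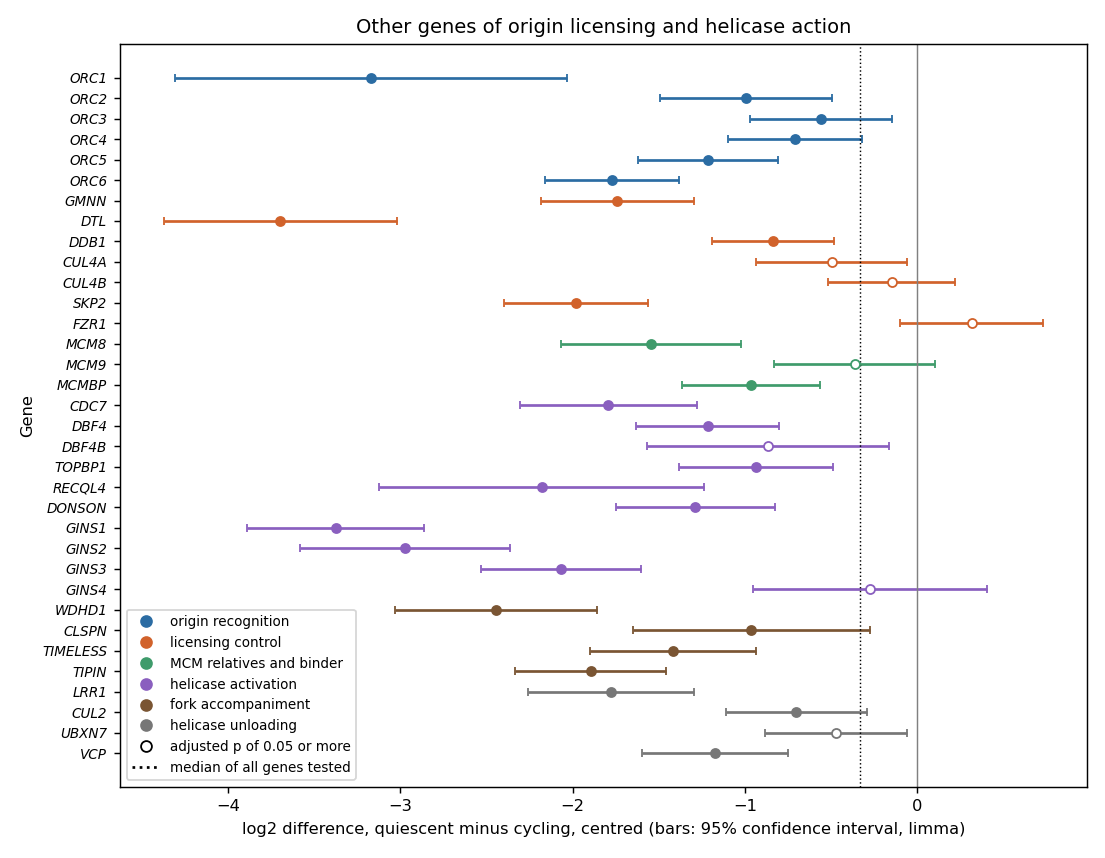
Log2 difference, quiescent minus cycling, centred (horizontal axis, bars the 95% confidence interval of limma), of the 34 tested genes of origin licensing and helicase action outside the 10, coloured by role. Open circles are the 7 genes not called; DTL (−3.70), GINS1 (−3.38) and ORC1 (−3.17) lie farthest left.

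The profile of the ring over the 8 arrays was compared with that of each other gene tested, as the root mean square (RMS) of the log2 difference between the profiles after each had its own mean subtracted, a measure free of array scaling. Among the ring's own subunits MCM3 (0.13), MCM2 (0.15) and MCM7 (0.18) lay nearest the mean profile of MCM2 to MCM7, followed by MCM6 (0.37), MCM4 (0.45) and MCM5 (0.69). Each subunit is itself part of that mean, which lowers its distance, whereas genes outside the ring are not. Of the genes tested outside the 10, 2323 lay nearer to that mean than MCM5 did, where 11678 were tested in all. For the other subunits this count was 607 for MCM4, 337 for MCM6, 30 for MCM7, 12 for MCM2 and 3 for MCM3. Outside the ring it was 11293 for CDC45, 1508 for CDC6, 433 for CDT1 and 234 for MCM10. The nearest 5 were RFC3, a clamp loader subunit (0.10), PHB1, which encodes prohibitin (0.12), GDAP1 (0.13), the spermidine synthase SRM (0.13) and TUBG1, which encodes gamma-tubulin (0.13). RFC3 measured 5056 ± 1246 on cycling and 1426 ± 217 on quiescent arrays (SD, n = 4 each), a log2 difference of −2.22, next to −2.15 and −2.22 for MCM2 and MCM3. This likeness follows from choosing the nearest profile and is no separate result.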

How the data were processed

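RNA of 4 quiescent and 4 cycling samples was measured on 1 array each, with groups and sample numbers taken from the titles. Per the labels' protocols, Trizol RNA (30 ng) was made into biotinylated cRNA by a one-cycle protocol. Deposited intensities are linear and come from MAS5, per the submitters' processing notes, with no version given in the sources used here. Each array has a trimmed mean of 500.1. Values under 1 were set to 1, taken to log2 and centred on each array's median. Probe sets were named by the platform annotation, which can be old, and used only where 1 symbol is listed. Per gene the probe set with the highest mean log2 value was kept, and genes with a mean below that of the middle non-control probe set (83.3) were left out. Presence calls were not used.

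Groups were compared with lmFit and eBayes (trend, robust) of limma 3.58.1 in R 4.3.3 over all 11678 genes, with Benjamini-Hochberg adjustment and a threshold of 0.05; further probe sets were fitted over all 54613. Log2 differences are centred unless stated. Tables and plots used Python 3.11.15. On simulated data for these 11678 genes with 200 changed, the test recovered 90% of 4-fold and 62% of 2-fold changes, with 11 false calls. The simulated errors were independent between genes. Far fewer genes were changed than were called in the data (3794 lower and 327 higher), so these rates need not hold here. The members and gene lists were chosen with earlier results of these data known. Values are named for all members, for the largest, the smallest and each uncalled difference of a role, for further list genes beside them, chosen after their values were seen, and for the 5 nearest profiles. Alternatives were other scalings, filters, offsets, moderation, averaging of probe sets, a block for sample number and leaving out each array.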

Additional observations from a re-analysis of the deposited data

Results flagged for a closer look

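CDC6 on quiescent sample 3 measured 170.4, apart from the 3 other quiescent arrays at 266 to 285. The gap to its nearest neighbour, relative to the range of the group, exceeded Dixon's 95% critical value for 4 samples. It was the only such value among the 20 sets of 4 arrays examined for the 10 genes, and chance alone gives about 1 in 20. Without that array the log2 difference of CDC6 was −2.985.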

How the results depend on the processing

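Of the 10 genes, 9 kept their direction and their call in each setting in which they were tested; CDC45 and MCM10 did not pass the stricter filter. MCM5 kept its direction but lost its call in 8 of 16 settings. It had −0.26 as deposited, −0.15 after quantile normalization, −0.67 without the intensity filter (limma adjusted p = 0.0526) and −0.67 without trend and robust (0.0654). The other 4 were among the 8 fits that left out an array. Those 4 gave −0.62 to −0.54, where all 8 such fits gave −0.85 to −0.54. Counts over all genes were 1802 lower and 1430 higher as deposited and 1913 and 1230 after quantile normalization, against 3794 and 327; 1 gene of the licensing list was called higher in each. Signs turned for CUL4B (0.26 as deposited, 0.32 quantile normalized), GINS4 (0.14), MCM9 (0.051) and the dim MCM4 probe set (0.064), none of them called in those settings. The cause was not tested beyond the shift that centring adds. Same-numbered samples of both groups deviated together with correlations of 0.036 to 0.344. Quiescent samples 1 and 2 correlated best with the cycling sample of their own number, 3 with cycling sample 4 and 4 with cycling sample 3. The numbers were therefore not taken as pairs, although some structure by number is shared. With the replicate block 4439 genes were lower and 464 higher. MCM5 then had a limma adjusted p of 0.00241, lower in 4 of 4 numbers, while no call of the 10 genes changed. The second MCM5 probe set (0.0187) and UBXN7 (0.0454) passed with the block. DBF4B passed with 32 added (0.0462) and without trend and robust (0.00504), and CUL4A with the stricter filter (0.0495). GINS4 was called lower when its probe sets were averaged (−1.44, limma adjusted p = 0.00228). Dim signals limit the size of the changes of CDC45 and of the further probe sets of MCM10 and CDC6.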
